A study of Mus musculus with 2 samples.

Results

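The mitochondrial ribosomal protein genes were taken as every listed gene whose symbol starts with Mrps or Mrpl followed by a digit, with pseudogene symbols left out. The rule found 77 of the 27998 genes that both libraries list, 29 named for the small subunit and 48 named for the large subunit. The data are 2 single-cell libraries made with 10x Genomics droplets from AB2.2, an established mouse embryonic stem cell line, differentiated for 4 days. 1 library held wild type cells. The other held PHD2 knockout cells, in which the oxygen-sensing prolyl hydroxylase PHD2, encoded by Egln1, was knocked out. No other allele or agent is named for either group. The labels give neither the number of clones, nor the altered part of Egln1, nor the differentiation medium. With 1 library per group there is no spread between cultures, so sizes are described, no test was run, and every interval below covers counting error only.

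The mitochondrial ribosome translates the few mRNAs of mitochondrial DNA, which encode core subunits of the respiratory chain and ATP synthase. Its ribosomal RNAs come from mitochondrial DNA, but all of its proteins are encoded in the nucleus, made in the cytosol and imported. The small subunit binds the mRNA and decodes it, and the large subunit holds the peptidyl transferase centre and the exit tunnel. Part of the proteins have a counterpart in the bacterial ribosome and part exist only in mitochondria. PHD2 marks the alpha subunits of hypoxia-inducible factors for degradation when oxygen is present. T, also called Brachyury, is a transcription factor of the primitive streak and marks cells that enter mesendoderm.

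Promoter sequences from RefSeq (GRCm38.p6) matched 68 of the 77 genes, in 74 windows reaching from 250 bases before to 50 bases after a transcript start. Mrpl4, Mrpl13, Mrpl15, Mrpl19, Mrpl38, Mrpl54, Mrps28, Mrps34 and Mrps35 were not matched. 6 windows are shown, from 150 bases before to 30 after the start and read 5′ to 3′ on the gene's strand, because they belong to members at the ends of the ratios between the libraries or hold the motifs that were most frequent relative to other promoters. Capitals mark matches, on either strand, to CCGGAAG (ETS factors), GCATGCG (NRF1), AAGATGG (YY1) and GGGCGG (SP and KLF factors). Mrps6, the member with the highest ratio, is shown at chr16:92058186-92058365 (plus strand). Mrps18b, 1 of the 2 small subunit members with the lowest ratios, is shown at chr17:35916411-35916590 (minus strand). Mrpl34, the large subunit member with the lowest ratio, is shown at chr8:71464776-71464955 (plus strand). Mrpl43, near the top of the large subunit ratios, is shown at chr19:45006413-45006592 (minus strand). Mrpl22 at chr11:58171514-58171693 (plus strand) holds an ETS match beside the NRF1 letters, and Mrps27 at chr13:99344636-99344815 (plus strand) holds an ETS match and, after the start, the YY1 letters.
Mrps6: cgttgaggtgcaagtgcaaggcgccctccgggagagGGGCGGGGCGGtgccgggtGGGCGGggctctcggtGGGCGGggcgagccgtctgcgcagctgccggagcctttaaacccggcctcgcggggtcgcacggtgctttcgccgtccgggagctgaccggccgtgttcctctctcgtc
Mrps18b: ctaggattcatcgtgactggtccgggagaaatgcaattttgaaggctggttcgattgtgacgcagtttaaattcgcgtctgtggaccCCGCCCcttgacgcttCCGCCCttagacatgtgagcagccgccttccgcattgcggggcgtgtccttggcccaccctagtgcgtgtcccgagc
Mrpl34: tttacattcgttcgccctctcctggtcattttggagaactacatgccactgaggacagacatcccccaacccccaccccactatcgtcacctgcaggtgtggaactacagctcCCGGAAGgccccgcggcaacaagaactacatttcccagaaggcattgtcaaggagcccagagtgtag
Mrpl43: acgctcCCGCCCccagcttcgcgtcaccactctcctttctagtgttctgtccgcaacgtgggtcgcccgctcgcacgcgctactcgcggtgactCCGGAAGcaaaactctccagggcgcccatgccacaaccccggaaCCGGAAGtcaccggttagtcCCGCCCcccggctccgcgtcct
Mrpl22: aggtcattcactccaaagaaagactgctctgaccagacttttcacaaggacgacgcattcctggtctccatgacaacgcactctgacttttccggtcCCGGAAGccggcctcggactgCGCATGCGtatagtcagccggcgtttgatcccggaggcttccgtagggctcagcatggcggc
Mrps27: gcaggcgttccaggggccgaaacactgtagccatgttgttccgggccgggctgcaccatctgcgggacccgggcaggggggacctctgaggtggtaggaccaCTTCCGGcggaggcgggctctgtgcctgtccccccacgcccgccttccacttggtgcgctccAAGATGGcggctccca

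The ETS letters CCGGAAG stood in 33.8% of the 74 member windows and in 8.86% of all 32851 promoter windows of the same length. The YY1 letters AAGATGG stood in 17.6% and 6.34%, and the NRF1 letters GCATGCG, which overlap their own reverse complement, in 10.8% and 3.58%. GGGCGG stood in 52.7% and 35.7%, and TGACGT, the letters of the cyclic AMP response element, in 13.5% and 7.51%. The remaining motifs lay closer together. CCAAT (NFY) stood in 40.5% of member windows and 37.4% of all, ACGTG (the core bound by hypoxia-inducible factors) in 25.7% and 19.6%, and CACGTG (the E-box, which contains ACGTG) in 9.46% and 7.15%. A match is a description of the letters and not a measured site. The 24 measured members with the ETS letters had a median log2 ratio of knockout over wild type of -0.08 and the 43 without them -0.11. With the NRF1 letters the median was -0.11 over 8 members, and without them -0.10 over 59. The gap was wider for the E-box letters, with -0.20 over 5 members and -0.10 over 62 without, for TGACGT, with -0.16 over 8 and -0.10 over 59, and for ACGTG, with -0.14 over 16 and -0.10 over 51. For AAGATGG the medians were -0.13 over 13 members and -0.10 over 54. For CCAAT they were -0.11 over 26 and -0.09 over 41, and for GGGCGG -0.10 over 34 and -0.11 over 33. These differences were not tested.

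The 2 libraries kept 8515 wild type and 6927 knockout cells, with medians of 20434 and 20999 UMIs (unique molecular identifiers, each standing for 1 captured RNA molecule) per cell. Of their cell barcodes 16 occurred in both libraries. The 6 pluripotency markers, a check of the labelled cell type, were all detected and summed to 925 CPM (counts per 1000000 UMIs) in wild type cells and to 681 in the knockout. The 5 mesendoderm and streak markers summed to 59.0 and 837 CPM. At least 3 UMIs of T were found in 0.763% of the wild type cells and 64.8% of the knockout cells. The 5 haemato-endothelial markers summed to 13.4 and 62.6 CPM, the 5 trophoblast markers to 3.49 and 12.5, the 4 neuroectoderm markers to 25.7 and 11.7, and the 7 feeder fibroblast and 6 visceral endoderm markers to under 4 CPM each in both libraries. The part of these other cells in the results below was not tested. Egln1 was at 18.2 CPM (wild type) and 13.6 CPM (knockout). Since the altered part is not given, this level does not check the knockout.

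Summed over all kept cells, the small subunit genes gave 0.384% of wild type UMIs and 0.356% of knockout UMIs. The large subunit genes gave 0.813% and 0.727%. Both sums were thus lower in the knockout library, and the ratio of small to large subunit UMIs was 0.472 in wild type and 0.490 in knockout cells. The summed level varied among cells of 1 library by more than it differed between the libraries: both subunits together had a median of 1.19% of a cell's UMIs in wild type (SD over cells 0.146) and 1.08% in knockout cells (SD over cells 0.157). UMIs of different genes are not compared by level here, since capture differs between transcripts and no per-length scale was used.

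Across the 77 members, 76 were measured, meaning that the library with the higher level reached 5 CPM. The exception was Mrpl53, at 1.22 CPM in both libraries. A ratio of at least 1.5 in either direction was taken as a call. 1 member was called higher in the knockout library (Mrps6) and 0 were called lower, against 11.8% higher and 2.35% lower of all 8540 measured genes. Smaller ratios mostly pointed the same way: 64 of the 76 members had a log2 ratio below 0, against 30.1% of all measured genes. The interval of the ratio lay below 1 for 59 members, above 1 for 12 and held 1 for 5, against 24.7% below and 63.2% above among all measured genes. The median log2 ratio was -0.09 over the 29 small subunit members and -0.11 over the 47 measured large subunit members, while it was 0.16 over all measured genes. Many of those genes have low levels, and among the 2398 that reached 50 CPM the median was 0.01, with 1161 below 0. At that level 58 of 69 members were below 0, with a median of -0.11. Calls at that level were 119 higher and 42 lower of the 2398 genes, and 1 higher and 0 lower of the 69 members. Intervals lay below 1 for 1079 of these genes and 55 of these members, and above 1 for 1156 and 11.

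**Figure D1:**
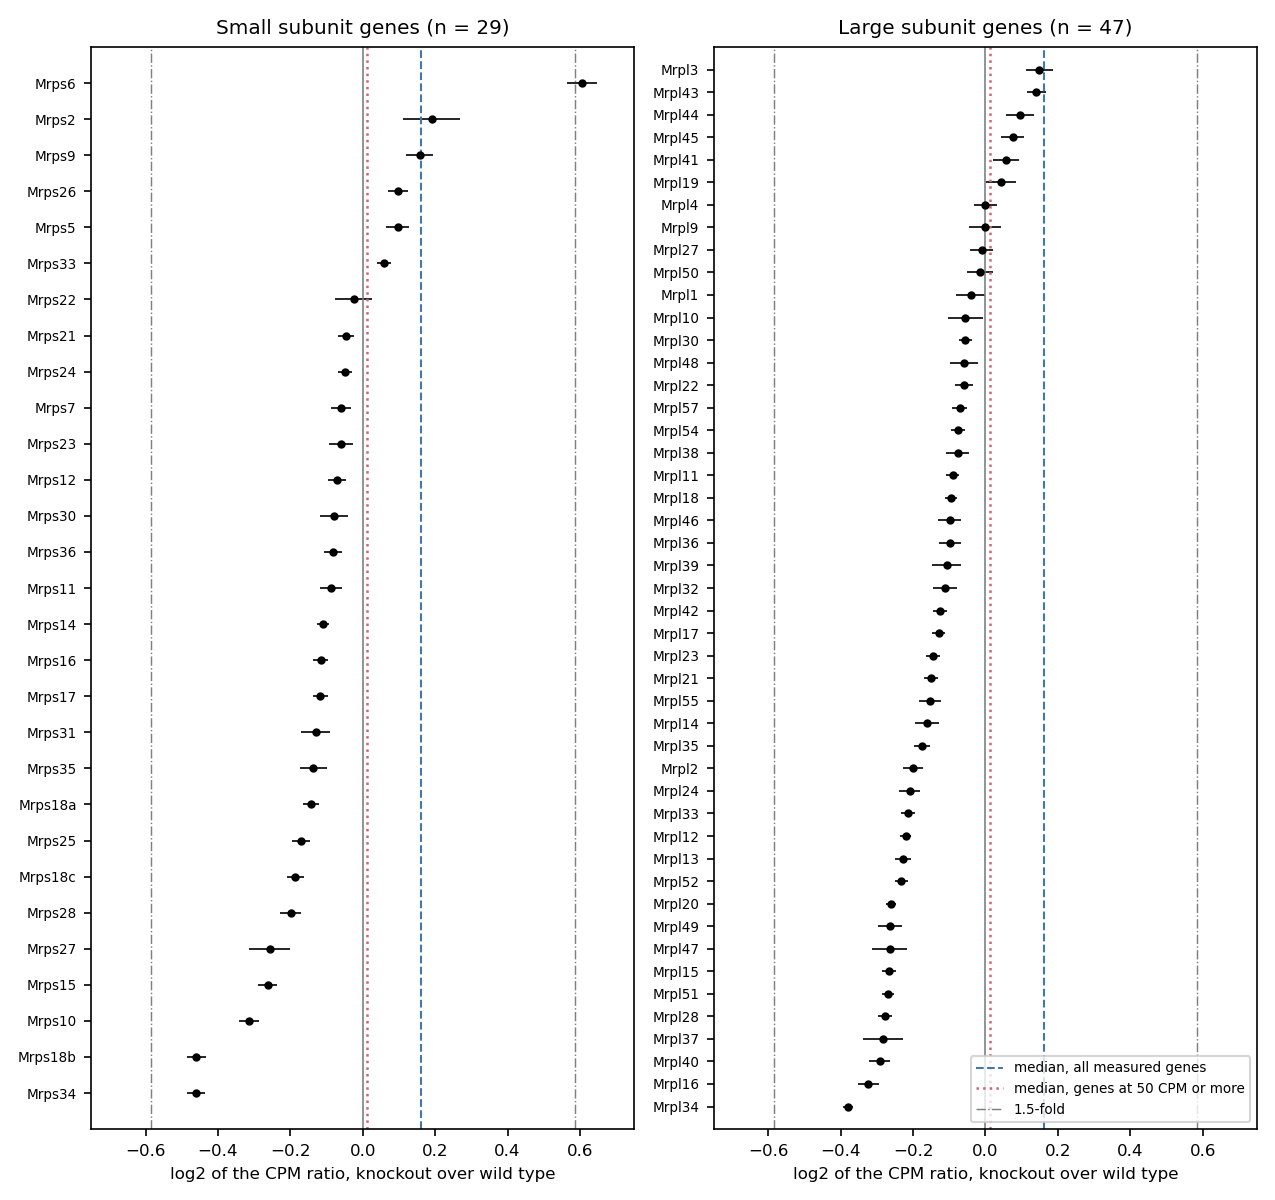
Log2 of the CPM ratio of knockout over wild type (horizontal axis) for each measured small subunit gene (left) and large subunit gene (right); points are ratios and bars their 95% counting intervals, with lines at the median of all measured genes, at the median of genes at 50 CPM or more, and at 1.5-fold. Most points lie left of 0, and Mrps6 alone passes 1.5-fold under this scaling.

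The zero of these ratios depends on the scaling. With median-of-ratios scaling in place of CPM, the all-gene median went from 0.16 to -0.01 while 58.9% of the called genes were higher (572 higher, 399 lower) in place of 83.3% (1006 higher, 201 lower). The members called went from 1 higher (Mrps6) and 0 lower to 0 higher and 2 lower (Mrps34 and Mrps18b). The small and large subunit medians became -0.26 and -0.28. Relative to the median of all genes they lay at -0.25 and -0.27 under either scaling. A change of scaling moves the log2 ratios of all genes by nearly the same amount. The equal values therefore follow from the method and are no check of the difference. Its size also depends on which genes are counted as measured. With a limit of at least 20 CPM the subunit medians lay at -0.19 (small) and -0.20 (large) relative to all genes under CPM.

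In the small subunit, Mrps6 was at 43.1 CPM (8679 UMIs) in the wild type and 65.5 CPM (10335 UMIs) in the knockout library, a ratio of 1.52 (95% interval 1.48 to 1.57). Mrps6 binds the small subunit's ribosomal RNA and has a bacterial counterpart. It lies at chr16:92058270-92112227 (GRCm38) and overlaps Slc5a3, a myo-inositol transporter gene, on the same strand. Slc5a3 itself had 1.68 and 4.41 CPM (ratio 2.63, 2.30 to 3.0). Neither the labels nor the file headers say how reads of overlapping genes were assigned, and the part of Slc5a3 in the Mrps6 ratio was not tested. The call of Mrps6 ended under median-of-ratios scaling (log2 0.43) and among cells with a high share of UMIs from chromosome 8 (log2 0.45), and its sign was kept under every alternative run.

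The lowest ratios of the small subunit belonged to Mrps34 and Mrps18b, which both had a log2 ratio of -0.46. Mrps34, a protein of the mitochondrial ribosome without a bacterial counterpart, was at 178 CPM (35894 UMIs) in the wild type library and 129 CPM (20423 UMIs) in the knockout, 1.38-fold lower (1.35 to 1.40). It lies at chr17:24895116-24897502 and overlaps Nme3 on the same strand (4.29 and 3.20 CPM) and Mapk8ip3 on the opposite strand (7.25 and 10.2 CPM), both far below its own counts. Mrps18b, 1 of 3 mammalian relatives of a single bacterial protein, was at 157 and 114 CPM, 1.38-fold lower (1.35 to 1.40), and lies at chr17:35910379-35916389. Its relatives moved less. Mrps18c was at 162 and 143 CPM (log2 -0.18), and Mrps18a, whose protein is known from structures to sit in the large subunit, at 177 and 160 CPM (log2 -0.14). Next came Mrps10 at 137 and 110 CPM (log2 -0.31), Mrps15 at 145 and 121 CPM (log2 -0.26) and Mrps27, a pentatricopeptide repeat protein, at 32.1 and 26.9 CPM (log2 -0.25). None of these passed 1.5-fold under CPM, while under median-of-ratios scaling Mrps34 and Mrps18b did, 1.55-fold lower each (log2 -0.63), as did Mrps18b among cells with a low chromosome 8 share (1.51-fold lower).

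At the other end of the small subunit, after Mrps6, stood Mrps2 with 13.4 wild type and 15.3 knockout CPM (log2 0.18) and Mrps9 at 63.5 and 70.8 CPM (log2 0.15). Mrps26 was at 116 and 124 CPM and Mrps5 at 90.5 and 96.7 CPM, each with a log2 ratio of 0.10, and under median-of-ratios scaling Mrps5, Mrps9 and Mrps26 turned below 0. Mrps12, the counterpart of the bacterial protein at the decoding site, was at 145 and 138 CPM (log2 -0.07). Mrps14, the small subunit gene with most UMIs, was at 305 and 283 CPM (log2 -0.11). Mrps30, which structures place in the large subunit, was at 59.3 and 56.1 CPM, and Mrps36, a component of the 2-oxoglutarate dehydrogenase complex, at 146 and 138 CPM. Both had a log2 ratio of -0.08. With Mrps30 and Mrps18a counted in the large subunit and Mrps36 left out, the subunit medians were -0.10 (small) and -0.11 (large). Apart from Mrps6, the small subunit thus kept within 1.38-fold between the libraries under CPM, and within 1.55-fold under median-of-ratios scaling.

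In the large subunit the lowest ratio belonged to Mrpl34, which was also the member with most UMIs over the 2 libraries together. It had 502 CPM (101220 UMIs) in wild type cells and 386 CPM (60940 UMIs) in the knockout, 1.30-fold lower (1.29 to 1.31), and lies at chr8:71464959-71465747. Mrpl34 is the counterpart of a small protein of the bacterial large subunit. Below it in size of difference stood Mrpl16 at 124 and 99.5 CPM (log2 -0.32), Mrpl40 at 120 and 98.1 CPM (log2 -0.29), Mrpl28 at 288 and 238 CPM (log2 -0.28) and Mrpl37 at 33.2 and 27.3 CPM (log2 -0.27). Mrpl12, the flexible stalk protein that recruits translation factors, was at 459 and 394 CPM (log2 -0.22). Its partner in the stalk, Mrpl10, was at 39.5 and 38.0 CPM (log2 -0.05).

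The highest large subunit ratios were small. Mrpl3 had 62.0 CPM in wild type cells and 68.7 in the knockout (log2 0.15), and Mrpl43 was at 136 and 150 CPM (log2 0.14). Mrpl44, which carries a ribonuclease III fold, was at 60.0 and 64.1 CPM (log2 0.09), Mrpl45, which lies at the exit tunnel near the inner membrane, at 85.8 and 90.4 CPM (log2 0.07), and Mrpl41 at 70.0 and 72.8 CPM (log2 0.06). Under median-of-ratios scaling the log2 ratios of Mrpl3, Mrpl41, Mrpl43, Mrpl44 and Mrpl45 were all below 0. Where a difference of 25% was enough for a call, 4 members were lower (Mrps34, Mrps18b, Mrpl34 and Mrpl16), against 6.9% of all measured genes, and Mrps6 alone was higher, against 32.0%. The 47 members with a bacterial counterpart had a median log2 ratio of -0.12 and the 29 measured members known only from mitochondria -0.08, so neither class stood far from the other.

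The sums of both subunits changed little across knockout cells with different amounts of T. In knockout cells the median share of a cell's UMIs from small subunit genes was 0.354% in the 960 cells without a T UMI, 0.356% in 1481 cells with 1 to 2, 0.359% in 1373 cells with 3 to 5, 0.353% in 1399 cells with 6 to 10 and 0.346% in 1714 cells with over 10. For the large subunit the same medians were 0.711%, 0.722%, 0.728%, 0.735% and 0.717%. All 5 groups of knockout cells lay below the medians of wild type cells without a T UMI, which were 0.380% and 0.811%. In wild type cells with 1 to 2 T UMIs the medians were 0.381% and 0.814%, and in the 59 with 3 to 5 they were 0.377% and 0.782%. T UMIs came with depth: the median was 19048 UMIs per knockout cell without T and 24020.5 in those with over 10.

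**Figure D2:**
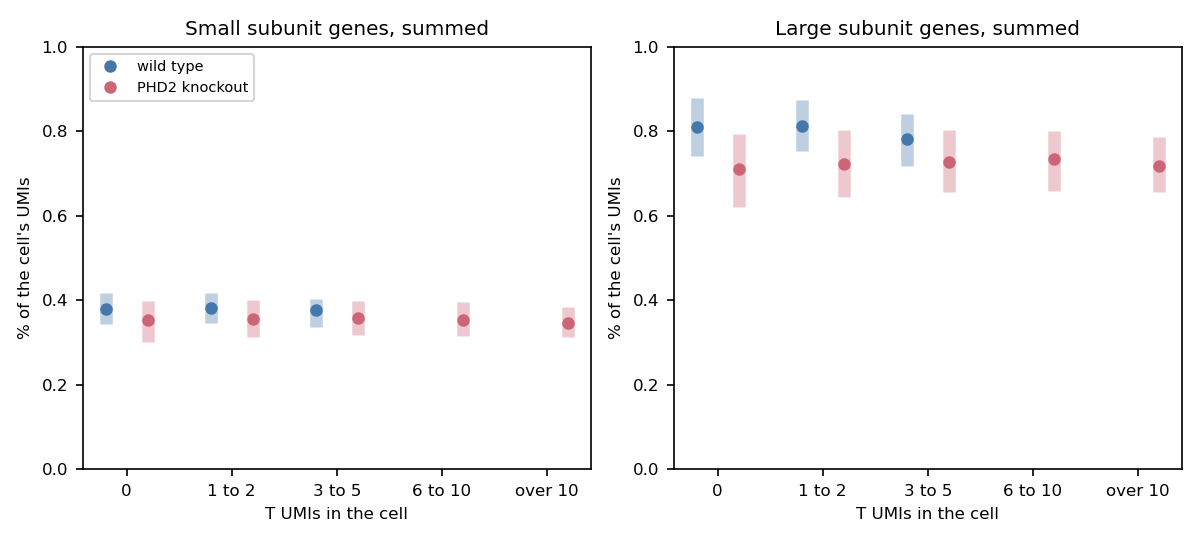
Percent of a cell's UMIs from small subunit genes (left) and large subunit genes (right) by the number of T UMIs in the cell; points are medians over cells, boxes span the quartiles, blue is wild type and red PHD2 knockout, and the 6 wild type cells with over 5 T UMIs are not drawn. Medians of knockout cells change little from 0 to over 10 T UMIs and lie below those of wild type cells.

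Within the knockout library, 4486 cells with at least 3 T UMIs were set against the 960 without one. These are cells of 1 culture and not replicates. 0 of 76 members passed 1.5-fold, against 2.78% higher and 2.99% lower of 8682 measured genes. Among the 2401 genes that reached 50 CPM, 35 were higher and 31 lower. The median log2 ratio of T-positive over T-negative cells was -0.01 over the small subunit (12 members above 0, 17 below) and 0.02 over the large subunit (29 above, 18 below), beside 0.03 over all measured genes. The interval of the ratio held 1 for 44 members, lay above 1 for 22 and below 1 for 10, where 25.5% of all measured genes lay above and 18.0% below. The small subunit held both ends. Mrps18b was at 132 CPM without T and 108 CPM with T (log2 -0.29), and Mrps22, a protein known only from mitochondria, at 38.4 and 33.4 CPM (log2 -0.19). Mrps21 was at 168 and 190 CPM and Mrps36 at 124 and 140 CPM, each with a log2 ratio of 0.18, and Mrps34 was at 119 and 133 CPM (log2 0.17). In the large subunit Mrpl16 was lowest, at 110 and 96.7 CPM (log2 -0.18), and Mrpl55 and Mrpl50 were highest, each with a log2 ratio of 0.12.

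The 2 members with the lowest ratios between the libraries, Mrps34 and Mrps18b, went opposite ways along T within the knockout library. Mrps18b was at 132, 125, 120, 112 and 96.9 CPM in the 5 groups from 0 to over 10 T UMIs, so that each group lay below the one before. In wild type cells it was at 158 CPM without T, 147 with 1 to 2 T UMIs and 127 with 3 to 5 (284 UMIs in 59 cells, 113 to 143 CPM). Mrps34 was at 119, 123, 128, 134 and 136 CPM in the same groups of knockout cells, each above the one before, while it was at 179, 175 and 145 CPM in wild type cells (324 UMIs in the last group, 130 to 162 CPM). Mrps6 was at 66.4, 71.3, 69.7, 63.5 and 59.9 CPM in knockout cells and at 42.9, 43.1 and 53.3 CPM in wild type cells (119 UMIs in the last group). Its lowest knockout group stood above the wild type groups with 0 and with 1 to 2 T UMIs, and within the counting interval of the group with 3 to 5 (44.1 to 63.7 CPM). Mrpl34 was at 365, 386, 389, 401 and 384 CPM in knockout cells and at 505, 486 and 481 CPM in wild type cells. Each of these knockout T groups lay below each of these wild type groups, and how many of all genes do so was not counted. By chromosome 8 share the libraries did overlap, with 400 CPM in low-share wild type cells and 426 CPM in high-share knockout cells.

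**Figure D3:**
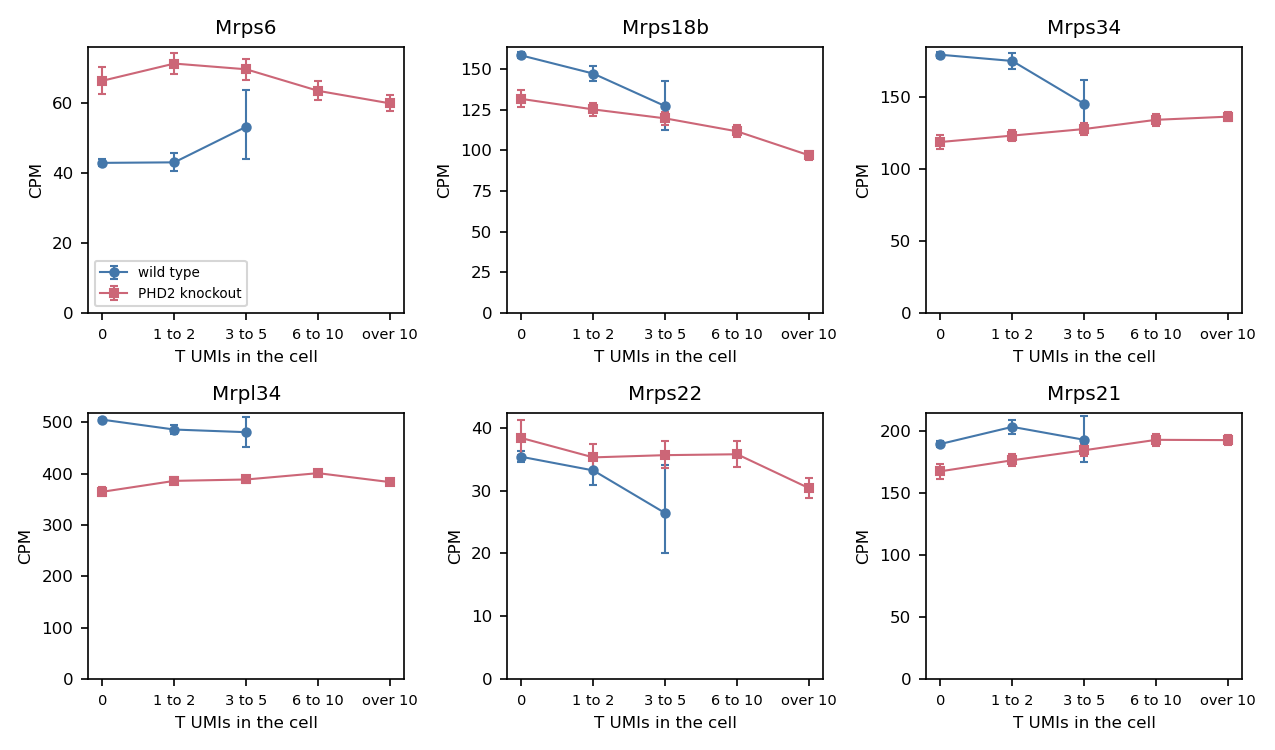
Level in CPM of 6 members in cells grouped by T UMIs, from UMIs summed over the cells of each group; points are levels with 95% Poisson intervals, blue is wild type and red PHD2 knockout, and the 6 wild type cells with over 5 T UMIs are not drawn. Mrps18b is lower and Mrps34 higher in each successive group of knockout cells.

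Over the 7 groups with at least 700 cells (2 in the wild type and 5 in the knockout library), the highest level of a member divided by its lowest had a median of 1.16. Mrpl30, Mrps7 and Mrps33 varied least, each at 1.07. Mrps6 (1.66), Mrps18b (1.63), Mrpl53 (1.52, on few UMIs) and Mrps34 (1.51) were the 4 at 1.5 or more. Over the 8953 genes that reached 5 CPM in at least 1 group the median was 1.36 and 33.4% were at 1.5 or more, against 3 of 76 members. Among the 2533 genes that reached 50 CPM the median was 1.24, with 17.4% at 1.5 or more, against 3 of 69 members.

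In the wild type library 65 cells had at least 3 T UMIs. Their median depth was 35227 UMIs, against 20138.5 in the 7654 cells without one, and doublets that the scores miss may remain among them. 0 of 76 members passed 1.5-fold, against 9.95% higher and 1.64% lower of 8436 measured genes. The medians were -0.07 for the small and -0.08 for the large subunit, beside 0.12 for all measured genes. Below 0 lay 54 of 76 members, against 32.8% of all measured genes. Among the 2345 genes that reached 50 CPM, 40 were called higher and 4 lower. Their median was 0.03, with 1031 below 0. At that level 49 of 69 members were below 0, with a median of -0.08. Over all 76 members the interval held 1 for 52, lay below 1 for 21 and above 1 for 3. Of all measured genes 6.6% lay below and 21.3% above. At 50 CPM or more the interval lay below 1 for 422 of the 2345 genes and 18 of the 69 members. It lay above 1 for 657 of these genes and 3 of these members. For 5 members the interval lay below 1 here and above 1 in the T comparison of knockout cells, against 1.01% of the 8158 genes measured in both, and 0 members had the opposite order, against 2.44%. The lowest member was Mrps22, at 35.4 CPM without T and 24.9 CPM with T (64 UMIs, log2 -0.49), followed by Mrps31 (log2 -0.44) and Mrps27 (log2 -0.38). The highest was Mrps2, at 13.4 and 17.1 CPM (44 UMIs, log2 0.34), whose interval held 1. Mrps6 was at 42.9 and 52.5 CPM (log2 0.29, ratio 1.02 to 1.45), and thinned to 14000 UMIs per cell, where 15 T-positive cells remained, its log2 ratio was -0.15.

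Cells without a T UMI were compared between the libraries to leave out cells with detected T. Other markers still differed between them: the mesendoderm and streak markers summed to 47.4 CPM in these wild type and 292 CPM in these knockout cells, the haemato-endothelial markers to 12.9 and 49.3 CPM, and the trophoblast markers to 3.53 and 16.6 CPM. Mrps6 was called higher, at 42.9 CPM over 7654 cells of the wild type and 66.4 CPM over 960 of the knockout (ratio 1.55, 1.46 to 1.64). Mrps34 was called lower, at 179 and 119 CPM, 1.51-fold, and its ratio of 0.662 has an interval of 0.634 to 0.691, which spans the 1.5-fold limit. Under median-of-ratios scaling the call of Mrps6 ended (log2 0.46), that of Mrps34 held (log2 -0.75) and Mrpl34 was called lower (log2 -0.63). The call of Mrps6 also ended in cells with a high chromosome 8 share (log2 0.49), and that of Mrps34 after thinning to 14000 UMIs per cell (log2 -0.56). Among 8541 measured genes 12.0% were higher and 1.87% lower. The medians were -0.12 for the small and -0.15 for the large subunit, with 61 of 76 members below 0, beside 0.15 for all measured genes and 31.2% below 0. Among the 2375 genes that reached 50 CPM the median was 0.003, with 1174 below 0, 109 called higher and 34 lower. At that level 57 of 69 members were below 0, with a median of -0.14, and 1 was called higher and 1 lower. Mrpl34 was the lowest large subunit member again, at 505 and 365 CPM (log2 -0.47). The 2-cell-like markers summed to 15.8 CPM in these knockout cells, against 3.56 CPM in the wild type cells without T and 0.527 CPM in knockout cells with T; the part of any of these markers' cells in the result was not tested.

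Members were also placed by chromosome. All 8 measured members on chromosome 17 had a log2 ratio of knockout over wild type below 0, with a median of -0.24, while the 412 other measured genes of that chromosome had a median of 0.13. Mrps34, Mrps18b, Mrps10, Mrpl28, Mrpl2, Mrps18a, Mrpl14 and Mrpl18 are these members. This was not particular to chromosome 17, since 64 of the 76 members were below 0 over all chromosomes. All measured members were below 0 also on chromosomes 3, 4, 5, 7, 8, 10, 13, 14 and 15, with 1 to 6 members each. The median was -0.26 over 4 members on chromosome 4 and -0.20 over 5 on chromosome 3. On chromosome 2, by contrast, 0 of 4 members were below 0 (Mrps2, Mrps5, Mrps26 and Mrpl41; median 0.10), beside 0.15 for the other genes; as given above, Mrps5, Mrps26 and Mrpl41 turn below 0 under median-of-ratios scaling. The 10 members on chromosome 11 had a median of -0.06, beside 0.24 for the other genes, and the 2 on chromosome 8 (Mrpl34 and Mrps31) -0.25, beside -0.01.

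By the share of UMIs from chromosome 8, counted without the members, cells were split into a low and a high class. Otsu's method set the limit on the cells of both libraries together. It gives a low and a high class for any distribution, so the split does not show that separate classes exist. Under a limit of 6.06% lay 16.3% of the wild type cells and 45.8% of the knockout cells. Between high-share and low-share cells 0 of 76 members passed 1.5-fold in either library, against 0.916% higher and 2.28% lower of all measured genes in wild type and 2.33% and 2.58% in knockout cells. The share is made up of the other genes of the chromosome, whose median log2 ratio of high-share over low-share cells was 0.38 in wild type and 0.41 in knockout cells. Mrpl34 moved like them, with log2 ratios of 0.39 and 0.31: it was at 400 CPM in the low-share and 523 CPM in the high-share wild type cells, and at 343 and 426 CPM in knockout cells. Mrps31 was at 44.9 and 61.9 CPM in wild type and at 43.0 and 64.0 CPM in knockout cells (log2 0.45 and 0.56). Among the other genes of chromosome 8, 9.28% were called higher in wild type and 17.6% in knockout cells. The members on other chromosomes had a median log2 ratio of high-share over low-share cells of -0.04 in either library. Within the low-share cells Mrpl34 was at 0.858 times its wild type level in the knockout library, and within the high-share cells at 0.815 times, beside 0.769 over all cells. Mrps31 was at 0.958 times (0.900 to 1.019) within the low-share cells, at 1.034 times (1.0001 to 1.069) within the high-share cells, and at 0.913 times over all cells. The small and large subunit medians of knockout over wild type were -0.10 and -0.15 within low-share cells and -0.11 and -0.12 within high-share cells. Within low-share cells Mrps6 was called higher (log2 0.73) and Mrps18b lower (log2 -0.59), against 11.5% higher and 3.79% lower of all measured genes, and within high-share cells 0 members were called, against 11.1% and 2.06%. Egln1 lies on chromosome 8 too. The number of chromosome copies was not measured.

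A similar class by chromosome 11 was looked for after seeing the data. In the knockout library 701 cells (10.1%) had over 12.0% of their UMIs from that chromosome, with a median share of 14.1% and a median of 25041 UMIs per cell, while 73 wild type cells (0.857%) did. The members on the chromosome were left out when the share was counted, but the other genes of the chromosome define the class. All 10 members on chromosome 11 were higher in the 701 cells than in the other knockout cells, by 1.35-fold for Mrpl45 to 1.68-fold for Mrpl55. 5 of them passed 1.5-fold (Mrpl10, Mrpl22, Mrpl27, Mrpl55 and Mrps23), and 0 were lower. Among the 750 other measured genes of chromosome 11, which define the class, 38.7% passed 1.5-fold higher, with a median log2 ratio of 0.51 beside 0.59 for the 10 members, so the members moved with their chromosome. Of all measured genes 5.23% were higher and 2.09% lower. Mrpl22 was at 135 CPM in the other knockout cells and 223 CPM in the 701, and Mrpl12 at 376 and 534 CPM (1.42-fold). The 66 measured members on other chromosomes had a median log2 ratio of 0.03, and 0 of them passed 1.5-fold. Without the cells of high chromosome 11 share, the small and large subunit medians of knockout over wild type were -0.12 and -0.15.

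**Figure D4:**
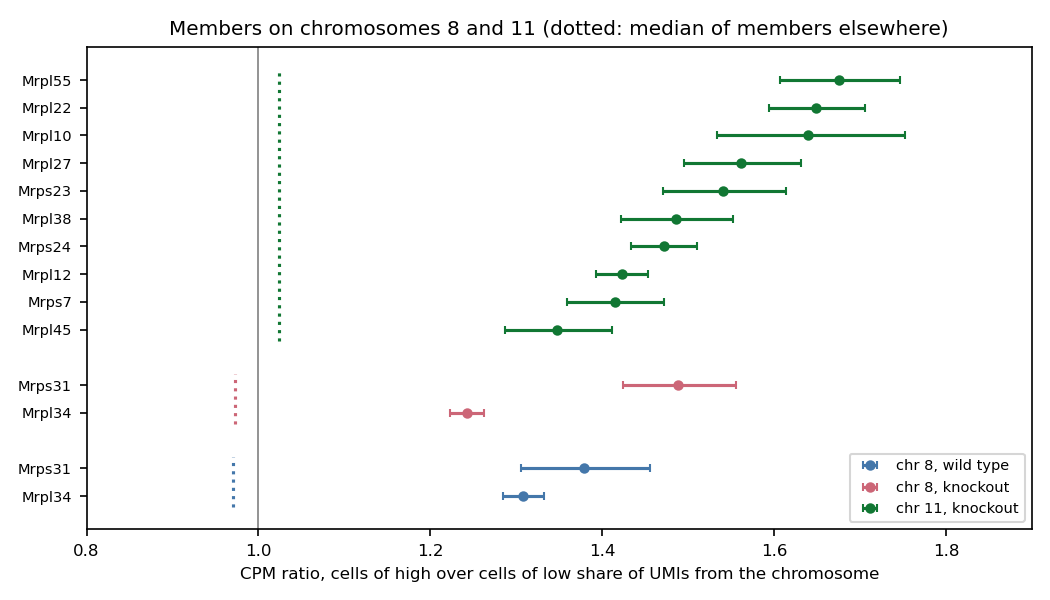
CPM ratio of cells with a high over cells with a low share of UMIs from chromosome 8 or 11 (horizontal axis, linear) for the members on those chromosomes; points are ratios with 95% counting intervals, colours give the chromosome and library, and dotted lines the median of members on other chromosomes. All members on the 2 chromosomes lie above 1, from 1.24 to 1.68, and so do the medians of the other genes of these chromosomes, which are not drawn.

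Genes that act with the ribosome were taken from lists chosen with earlier results known. Beside the calls that follow, 11.8% of all 8540 measured genes were called higher in the knockout library and 2.35% lower. Of 6 subunits under other symbols, 0 were called, and the median log2 ratio of knockout over wild type was -0.16. Chchd1 had 390 CPM in wild type cells and 307 in the knockout (log2 -0.34), Gadd45gip1 was at 126 and 101 CPM (log2 -0.32), and Dap3, a GTP-binding subunit, at 80.1 and 84.0 CPM (log2 0.07). Ict1, a peptidyl-tRNA hydrolase built into the large subunit and not matched by the symbol rule, was at 176 and 164 CPM (log2 -0.10). Of 27 assembly factors 23 were measured, 1 was called higher (the rRNA methyltransferase Nsun4, at 4.44 and 6.71 CPM) and 0 lower, with a median of -0.05. Mpv17l2 was lowest at 30.8 and 23.6 CPM.

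Of 17 measured translation factors 0 were called, with a median of 0.14: Slirp was at 233 and 198 CPM, and the initiation factor Mtif2 at 27.8 and 37.4 CPM. Of 16 measured mitochondrial tRNA synthetases and related enzymes 0 were called, with a median of 0.02. Of 15 measured genes of mitochondrial DNA expression 0 were called, with a median of 0.11. Ssbp1, which coats single-stranded mitochondrial DNA, was at 412 and 314 CPM, Tfam at 72.0 and 83.0 CPM and the RNA polymerase Polrmt at 5.14 and 6.41 CPM. The mRNAs that this ribosome translates stood mostly above 0. Of 12 measured mitochondrially encoded mRNAs 11 had a log2 ratio above 0, against 69.9% of all measured genes. Their median was 0.36, and 0 passed 1.5-fold. mt-Co3 was highest at 1320 and 1910 CPM, and mt-Cytb lowest at 1883 and 1872 CPM. In the T comparison of knockout cells all 12 of these mRNAs were above 0, against 56.1% of all measured genes, with a median of 0.10.

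2 larger lists give the setting. Of all measured genes 30.1% were below 0. The 75 nuclear-encoded respiratory chain subunits had a median of -0.10, with 50 below 0 and 0 called. The 79 measured cytoplasmic ribosomal proteins had a median of -0.03, with 54 below 0 and 0 called. Among 11 measured genes known to regulate such programmes, Ppargc1b was called higher at 2.52 and 5.14 CPM and Myc lower at 11.7 and 7.54 CPM. Of all measured genes 11.8% were called higher and 2.35% lower. Under median-of-ratios scaling the list medians were 0.19 for the mitochondrially encoded mRNAs (10 of 12 above 0), -0.02 for translation factors and -0.05 for mitochondrial DNA expression. They were -0.15 for tRNA synthetases, -0.20 for cytoplasmic ribosomal proteins, -0.21 for assembly factors, -0.27 for the respiratory chain and -0.33 for subunits under other symbols. Under this scaling 0 assembly factors and 0 regulators were called higher. The nuclear-encoded structural proteins of both ribosomes and of the respiratory chain thus had medians below 0 under CPM, as did the assembly factors. Median-of-ratios scaling lowers the log2 ratios of all genes by nearly the same amount. That these medians stayed below 0 under it therefore follows from the method and is no check. The mitochondrially encoded mRNAs had a median above 0 under both scalings.

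**Figure D5:**
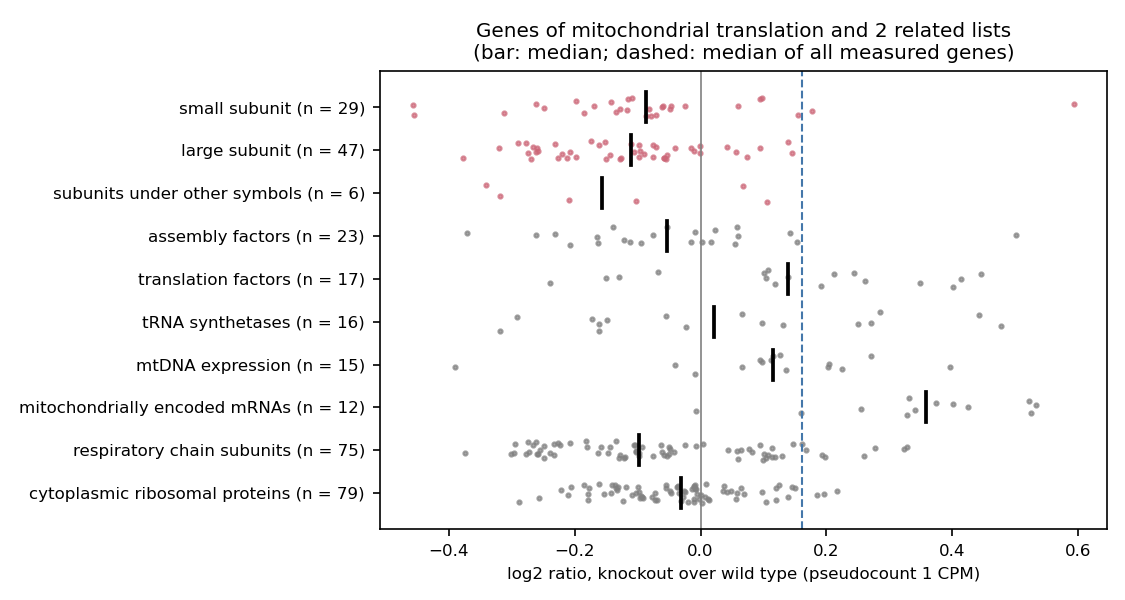
Log2 CPM ratio of knockout over wild type (horizontal axis, pseudocount 1 CPM) for the measured genes of each list; points are genes, black bars medians, and the dashed line the median of all measured genes at 0.16. Both mitochondrial ribosomal subunits, the subunits under other symbols and the respiratory chain lie mostly below 0, and the mitochondrially encoded mRNAs mostly above it.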

How the data were processed

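Per the file headers, the deposited matrices hold whole-number UMI counts per gene and cell barcode, written by Cell Ranger 4.0.0 and not normalized. The submitters' processing notes name mm10, Cell Ranger and Seurat. Neither states the counting strand, the end of the transcript read or the sequencing depth. The matrices held 9651 wild type and 7713 knockout barcodes with 226179474 and 173470962 UMIs. Groups were taken from the sample titles.

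Cells needed at least 1000 genes and at most 10% mitochondrially encoded UMIs. Scrublet (scanpy 1.11.5) marked 0 cells in either library, so the cells with the highest scores were removed at 0.8% per 1000 barcodes (712 and 456 cells). Sums of UMIs over kept cells (201481884 and 157754893 UMIs) were scaled to CPM. Log2 ratios used 1 CPM as pseudocount, so changes of low genes are understated; ratios and folds had none. Levels have exact Poisson and ratios exact conditional binomial (Clopper-Pearson) intervals at 95%, for counting error only. Intervals cover neither cultures nor clones. Calls needed 5 CPM in the higher group and a ratio of at least 1.5. The chromosome share limits (6.06% and 12.0%) were set by Otsu's method. Gene positions come from GENCODE vM21 (GRCm38). The calculation was tested on simulated counts.

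Members, lists and tests were chosen with earlier results of these data known. Named members are the 5 highest and 5 lowest ratios of each subunit, all calls, the member with most UMIs and a fixed set of structural interest, of which the text gives a selection; other lists are named by their ends and calls. Members singled out in the chromosome groups, by variation over T groups or as partners of a named member were chosen after their values were seen, as were Tfam, Polrmt, Ict1 and Mtif2. Alternatives were other limits on cells, no doublet removal, thinning to 14000 UMIs, cells of 15000 to 30000 UMIs, other scalings, pseudocounts and CPM limits, other T limits and the chromosome classes. The chromosome 11 class, the chromosome 8 class within T comparisons and the wild type limit of 5 T UMIs were chosen after seeing the data.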

Additional observations from a re-analysis of the deposited data

Results flagged for a closer look

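For 5 members the ratio of cells with at least 3 T UMIs over cells without one lay above 1 in the knockout library and below 1 in the wild type library, with both counting intervals clear of 1, and for 0 members the other way round. Of the 8158 genes measured in both comparisons 1.01% met the first rule and 2.44% the second. The difference between the libraries was not tested, since each has 1 library, and only 65 wild type cells carried 3 T UMIs. Mrps34 had a ratio of 1.12 in knockout and 0.804 in wild type cells. Mrpl54 had 1.08 and 0.894, Mrpl34 had 1.07 and 0.929, Mrpl17 had 1.07 and 0.926, and Mrpl51 had 1.05 and 0.917. The wild type ratio of Mrpl34 turned above 1 in low chromosome 8 share cells (log2 0.09) and in cells of 15000 to 30000 UMIs (log2 0.03). That of Mrpl54 turned above 1 after thinning and at 1 T UMI or more (log2 0.01 in each). The wild type T-positive cells were deeper (median 35227 UMIs) than the knockout ones (21849.5 UMIs), and the part of depth in these ratios was not tested.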

How the results depend on the processing

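With 1 library per group, differences between cultures, clones and libraries cannot be told apart from the knockout. A paired analysis was not possible for the same reason, since each group has 1 library. Of the alternatives to the summary values, 263 stayed within the limit used to judge them and 37 moved. Of the alternatives to the other values 1682 stayed and 206 moved. That limit is not a spread between libraries, which 1 library per group does not give. None of the members called with the main settings changed sign in the comparison that called it. Mrps9, called only under alternatives, did change sign in the wild type T comparison. It was called higher after thinning (log2 0.62) and lower at 5 T UMIs or more (log2 -0.69). For knockout over wild type, median-of-ratios scaling gave medians of -0.26 (small) and -0.28 (large), with 0 members higher and 2 lower (Mrps34, Mrps18b). Low chromosome 8 share gave 1 lower, high share 0 higher, and a limit of 25% in place of 1.5-fold 4 lower. For wild type T-positive over T-negative cells after thinning (15 T-positive cells), the large subunit median was -0.16. Of 76 members 1 was higher and 9 lower, beside 2342 higher and 1394 lower of 8371 genes. At 5 T UMIs or more (10 cells) the median was -0.16 with 9 members lower, beside 2579 higher and 880 lower of 8566 genes. It was 0.0049 at 1 T UMI or more. In low-share cells (21 cells) it was -0.18 with 1 member higher and 1 lower, beside 1856 and 614 of 8680 genes. Median-of-ratios scaling gave -0.20 (small) and -0.21 (large) with 1 member lower, beside 282 of 8354 genes. Cells of 15000 to 30000 UMIs gave 1 lower, beside 710 of 8798 genes, and a 1 CPM limit 1 lower, beside 637 of 11774. For cells without T, knockout over wild type, median-of-ratios scaling gave -0.28 and -0.31 with 0 higher and 2 lower (Mrps34, Mrpl34). Of 8485 genes 587 were higher and 329 lower there. Thinning gave 0 members lower, beside 160 of 8540 genes, and high share 0 higher, beside 1133 of 8499. The cause was not tested. The wild type percent of UMIs was 0.383% (small) and 0.816% (large) after thinning and 0.817% (large) in cells of 15000 to 30000 UMIs. The knockout percent was 0.729% (large) after thinning, and 0.357% and 0.732% in cells of 15000 to 30000 UMIs. Without mitochondrially encoded and cytoplasmic ribosomal protein genes in the total, the percents were 0.613% and 1.30% in wild type and 0.565% and 1.15% in knockout cells. In the wild type T-positive cells Mrps2, Mrps22 and Mrps27 rest on 44, 64 and 63 UMIs.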
